A study of Mus musculus with 26 samples.

Results

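The germline genes examined here were 30 mouse genes whose products act mainly in germ cells, in RNA control, in the piRNA pathway and in meiosis. They were taken from a list of symbols, chosen with earlier results of these data known, and all 30 were found among the 54146 genes of the RNA-seq count files. Expression was measured in MA9+SETDB1 cells (3 libraries) and in MA9+EV cells (3 libraries). Both are mouse leukemia cultures made by retroviral transfer of the fusion oncogene MLL-AF9 (MA9) into lineage-negative bone marrow, together with SETDB1, a histone H3 lysine 9 methyltransferase, or with the empty puromycin-resistance vector (EV). All cultures thus carried MLL-AF9, were cultured 8 to 12 weeks in medium with IL-3 and SCF, and kept in puromycin for about 3 to 6 weeks. The species of the SETDB1 sequence, the age and strain of the marrow donors and whether replicates were separate transductions are not given in the labels. The comparison asked how these genes differed when SETDB1 was overexpressed, in a series about repression by this enzyme.

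Germline genes are kept off in somatic cells by layers of repression at their promoters, among them DNA methylation, H3K9 methylation by enzymes such as SETDB1, and a Polycomb complex (PRC1.6) that reaches E-box and E2F-type motifs through MGA, MAX and E2F6. In the germ line, PIWI proteins loaded with small piRNAs silence transposons, in part in cytoplasmic granules. Meiotic chromosomes are held together by special cohesins and the synaptonemal complex. Some of these genes are switched on aberrantly in cancers, where they are called cancer-testis genes.

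Setdb1 itself (ENSMUSG00000015697.14) stood at 475, 605 and 607 CPM in MA9+SETDB1 replicates 1, 2 and 3, against 105, 108 and 109 CPM in MA9+EV replicates 1, 2 and 3, where CPM is the count scaled to a common library size. All MA9+SETDB1 libraries were above all MA9+EV libraries. Gene counts summed to between 18070482 and 21531528 in MA9+SETDB1 and to between 18165046 and 22561757 in MA9+EV. In both arms replicate 1 stood apart. The squared difference of counts per gene, relative to sampling noise of 1, was 95.8 and 105 between replicate 1 and the others in MA9+SETDB1 and 91.1 and 80.5 in MA9+EV, but 3.19 and 4.38 between replicates 2 and 3 of those arms. Nothing in the labels ties the replicates to separate cultures, so the p-values cover only the spread among these libraries, which may be technical. Of the leukocyte markers, Ptprc, Coro1a, Laptm5 and Spi1 were detected in every library, and the pluripotency markers Pou5f1, Nanog, Zfp42 and Dppa5a had 0 counts in all 6.

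The germline genes moved in both directions. RNA was recorded for 16 of the 30 and no count in any library for 14. Of the 7 that passed the filter on low counts, Dazl, Ddx4, Piwil2, Stag3 and Syce2 were higher in MA9+SETDB1, Tdrkh was lower, and Sycp2 made no call (edgeR quasi-likelihood test, Benjamini-Hochberg adjusted p under 0.05 over 12986 genes). The other 9 were below the filter, and each of them had fewer counts over the MA9+SETDB1 libraries than over the MA9+EV libraries. Of these, Sycp3, Slc25a31, Dpep3 and Smc1b had 4 counts or fewer in all, and Rnf17 had counts in 1 library. The MA9+EV arm was also deeper, with 3 counts over the arm equal to 0.044 CPM, against 0.056 CPM in MA9+SETDB1. The same share over all genes below the filter was not computed. Of all tested genes, 53.5% were called, 27.4% higher and 26.2% lower, so a call for a single gene was common in this comparison. The arms did not overlap for 6 of the 7 tested members, and for 64.6% of all tested genes. Dazl and Ddx4 passed the filter through the MA9+SETDB1 libraries alone, so these 2 had to differ to be tested. Piwil2 reached the filter's cutoff in 3 MA9+SETDB1 libraries and 1 MA9+EV library, and Tdrkh in 1 and 3. Neither would have passed on its lower arm alone, which limits how their calls can be read. The median log2 fold change over the 7 tested members was 1.57, and -0.01 over all tested genes. The 1.57 leaves out the 9 members below the filter, which all had fewer counts in MA9+SETDB1, and so does not describe the whole set.

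**Figure D1:**
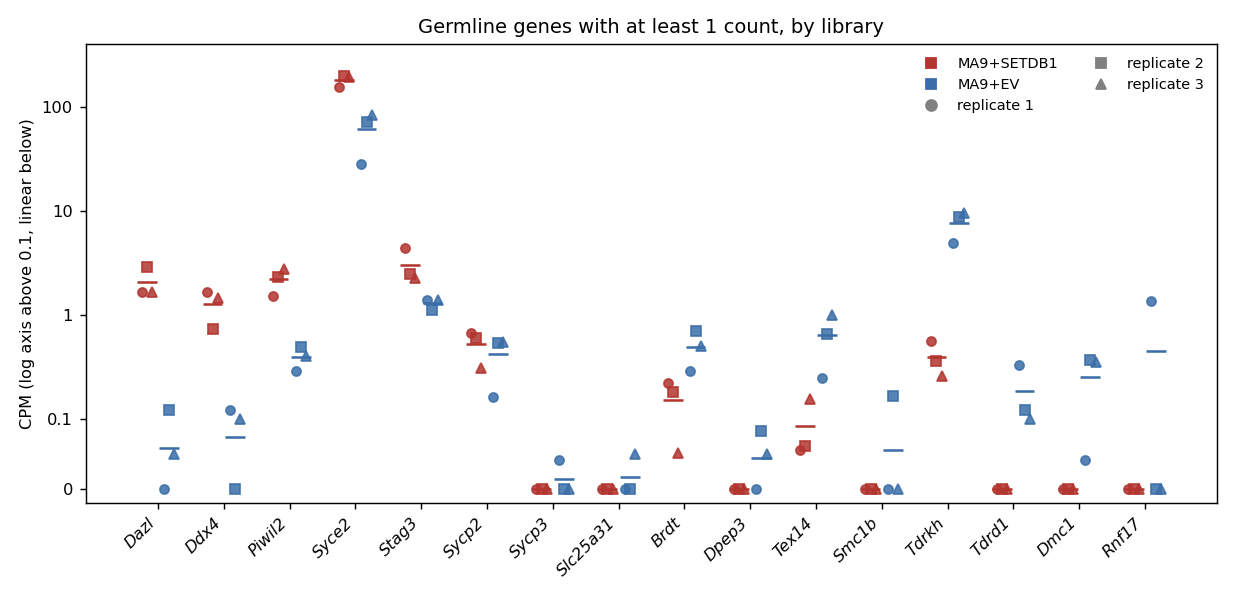
Level of each germline gene with at least 1 count in CPM (vertical axis, logarithmic above 0.1 and linear below) in the 3 MA9+SETDB1 libraries (red, left) and the 3 MA9+EV libraries (blue, right), with a bar at the arm mean and a marker shape per replicate. Syce2 sits between 156 and 195 CPM in MA9+SETDB1 and between 27.9 and 83.5 CPM in MA9+EV, and Rnf17 is above 0 in a single MA9+EV library.

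Both members grouped under germ cell RNA binding, Dazl and Ddx4, had more RNA in MA9+SETDB1 and at most 3 counts in any MA9+EV library. Dazl (ENSMUSG00000010592.8, GRCm38 chromosome 17, 50279393 to 50293620), which binds 3′ ends of germ cell messages and promotes their translation, had 30, 48 and 32 counts in MA9+SETDB1 replicates 1, 2 and 3, against 0, 3 and 1 counts in MA9+EV replicates 1, 2 and 3. Every MA9+SETDB1 library was above every MA9+EV library. Mean levels were 2.09 ± 0.723 CPM in MA9+SETDB1 and 0.0583 ± 0.0626 CPM in MA9+EV (SD, n = 3 each), and the log2 fold change was 5.01 (SE 0.70, with an adjusted p of 0.00111 by edgeR). The ratio of scaled counts was 35.0, with a 95% counting interval of 13.3 to 131. The log2 fold change was 6.15 without MA9+EV replicate 2 and 4.43 without MA9+EV replicate 1. Ddx4 (ENSMUSG00000021758.14, chromosome 13, 112598333 to 112652633), the Vasa RNA helicase of germ granules, had 30, 12 and 28 counts in MA9+SETDB1 against 3, 0 and 2 counts in MA9+EV, in the same replicate order. Again the arms did not overlap. In such bulk libraries, more cells with a transcript and more transcript per cell cannot be told apart. Ddx4 averaged 1.29 ± 0.495 CPM in MA9+SETDB1 and 0.0749 ± 0.0659 CPM in MA9+EV, with a log2 fold change of 4.02 (SE 0.73, with an adjusted p of 0.00334 by edgeR) and a ratio of 17.8 (95% counting interval 7.28 to 56.6). Its log2 fold change was 4.62 without MA9+EV replicate 1 and 3.43 without MA9+EV replicate 2. Of the genes within 20 kb of Ddx4 the only one tested, Slc38a9, an amino acid transporter gene, made no call (log2 fold change 0.29, SE 0.34, with an adjusted p of 0.495 by edgeR).

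The stretches before the starts of Dazl, which rose, and Ddx4, which rose, are shown with that of Tdrkh, which fell, and those of Hormad1 and Sycp3, which were at 0 counts or close to it, because they differ in the motifs of the repressor complex. Each run holds the 250 bases before the start on the gene's own strand, from RefSeq promoters of GRCm38.p6. Capitals mark the E-box CACGTG and the E2F-type motif TCCCGC, the E2F-type motif also as GCGGGA on the other strand. The positions are Dazl, chr17:50293621-50293870, minus strand, Ddx4, chr13:112652311-112652560, minus strand, Tdrkh, chr3:94412994-94413243, plus strand, Hormad1, chr3:95559427-95559676, plus strand, and Sycp3, chr10:88459337-88459586, plus strand.
Dazl: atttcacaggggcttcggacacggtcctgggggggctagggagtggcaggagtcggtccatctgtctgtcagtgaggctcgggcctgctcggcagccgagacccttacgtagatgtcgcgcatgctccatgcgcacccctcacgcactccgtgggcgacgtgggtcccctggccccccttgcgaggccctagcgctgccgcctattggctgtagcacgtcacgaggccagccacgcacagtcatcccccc
Ddx4: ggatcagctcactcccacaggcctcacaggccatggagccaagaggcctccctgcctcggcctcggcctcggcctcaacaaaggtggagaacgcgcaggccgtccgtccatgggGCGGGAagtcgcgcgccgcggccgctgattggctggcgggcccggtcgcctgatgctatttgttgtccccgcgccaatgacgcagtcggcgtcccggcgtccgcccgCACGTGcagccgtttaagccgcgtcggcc
Tdrkh: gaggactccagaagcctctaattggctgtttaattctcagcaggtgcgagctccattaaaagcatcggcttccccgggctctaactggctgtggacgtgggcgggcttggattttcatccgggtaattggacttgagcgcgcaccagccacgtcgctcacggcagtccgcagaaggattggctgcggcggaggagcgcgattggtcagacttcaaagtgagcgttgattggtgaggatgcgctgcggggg
Hormad1: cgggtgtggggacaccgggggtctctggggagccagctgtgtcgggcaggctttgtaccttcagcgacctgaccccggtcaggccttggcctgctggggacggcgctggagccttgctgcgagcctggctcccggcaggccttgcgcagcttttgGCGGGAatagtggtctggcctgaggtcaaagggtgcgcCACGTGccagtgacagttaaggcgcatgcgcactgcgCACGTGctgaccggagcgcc
Sycp3: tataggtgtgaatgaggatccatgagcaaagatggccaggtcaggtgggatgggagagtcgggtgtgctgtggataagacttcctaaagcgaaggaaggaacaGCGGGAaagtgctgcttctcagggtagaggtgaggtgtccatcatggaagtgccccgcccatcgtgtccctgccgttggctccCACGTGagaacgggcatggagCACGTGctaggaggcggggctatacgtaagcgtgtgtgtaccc
The Ddx4 stretch lies wholly inside the gene span given above, which ends at 112652633, so the start used for it is internal to that span. Ddx4 carries an E-box that begins 29 bases before this start and an E2F-type match that begins 136 bases before it. In Hormad1 the E-boxes begin 57 and 20 bases before the start, and in Sycp3 64 and 43 bases before it. Both also hold an E2F-type match, which begins 95 bases before the start in Hormad1 and 147 bases before it in Sycp3. Dazl and Tdrkh hold neither motif in these letters. Being picked for their motifs, these stretches do not show how the motifs divide over the members. Over all members with a listed promoter, both motifs stood in 1 promoter for 3 of 4 called higher and 3 of 12 without counts.

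Among 9 piRNA pathway genes, Piwil2 rose, Tdrkh fell, Tdrd1 and Rnf17 had counts in MA9+EV alone, and Mael, Tdrd9, Asz1, Mov10l1 and Stk31 had none in any library. Piwil2 (ENSMUSG00000033644.5, chromosome 14, 70372477 to 70436898), the PIWI protein MILI that carries piRNAs, had 27, 38 and 54 counts in MA9+SETDB1 replicates 1, 2 and 3 and 7, 12 and 8 counts in MA9+EV replicates 1, 2 and 3. The arms did not overlap. Its level averaged 2.21 ± 0.653 CPM in MA9+SETDB1 and 0.397 ± 0.105 CPM in MA9+EV, a log2 fold change of 2.46 (SE 0.39, with an adjusted p of 0.00185 by edgeR). Polr3d, an RNA polymerase III subunit gene 1.85 kb away, made no call (log2 fold change 0.23, SE 0.16, with an adjusted p of 0.246 by edgeR).

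Tdrkh (ENSMUSG00000041912.12, chromosome 3, 94413243 to 94434854), a Tudor and KH domain protein on the mitochondrial surface that takes part in trimming piRNAs, was the tested member that fell. It had 10, 6 and 5 counts in MA9+SETDB1 replicates 1, 2 and 3, against 118, 212 and 188 counts in MA9+EV replicates 1, 2 and 3. The highest MA9+SETDB1 library, at 0.559 CPM, was below the lowest MA9+EV library, at 4.87 CPM. Means were 0.395 ± 0.152 CPM in MA9+SETDB1 and 7.71 ± 2.48 CPM in MA9+EV, 19.5-fold lower in MA9+SETDB1, with a log2 fold change of -4.27 (SE 0.44, with an adjusted p of 0.00029 by edgeR). Oaz3, which overlaps it, had 0, 0 and 1 counts in MA9+SETDB1 and 0, 0 and 1 in MA9+EV. Mrpl9, a mitochondrial ribosomal protein gene 8.3 kb away, was lower as well, by a log2 fold change of -0.62 (SE 0.10, with an adjusted p of 0.00174 by edgeR).

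Tdrd1, a Tudor scaffold that binds MILI, had 0 counts in every MA9+SETDB1 library and 8, 3 and 2 counts in MA9+EV, at least 3.40-fold lower with the arm set at a floor of 3 counts. It was below the filter and was called only where the filter was dropped (edgeR adjusted p = 0.0403), and not by DESeq2 (adjusted p = 0.0943). Rnf17, a RING finger and Tudor protein of germ granules, had 33 counts in MA9+EV replicate 1 and 0 counts in all other libraries. Its MA9+EV level thus rested on 1 library, and without the filter the test made no call (edgeR adjusted p = 0.109). Cenpj, a centriole gene that lies 1.73 kb from Rnf17, made no call (log2 fold change -0.07, SE 0.21, with an adjusted p of 0.796 by edgeR).

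The chromosome axis and synaptonemal complex genes also divided, with Syce2 and Stag3 higher, Sycp2 without a call, Sycp3 and Smc1b at the edge of detection, and Sycp1, Syce1, Hormad1 and Tex11 without counts. Syce2 (ENSMUSG00000003824.12, chromosome 8, 84872111 to 84887446), a central element protein, had the most counts of the members. It had 2794, 3196 and 3686 counts (156, 195 and 191 CPM) in MA9+SETDB1 replicates 1, 2 and 3, against 676, 1712 and 1658 counts (27.9, 71.0 and 83.5 CPM) in MA9+EV replicates 1, 2 and 3. The arms did not overlap, and MA9+EV replicate 1 was the lowest of all. The log2 fold change was 1.57 (SE 0.38, with an adjusted p of 0.0115 by edgeR), and 1.22 (edgeR adjusted p = 0.00147) without MA9+EV replicate 1. Syce1 and Sycp1, its partners in the central element and the transverse filament, had 0 counts in all 6 libraries.

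Syce2 overlaps Gcdh, a mitochondrial dehydrogenase gene on the other strand, and lies 14.5 kb from Klf1, an erythroid transcription factor gene. Gcdh had 519, 480 and 612 counts in MA9+SETDB1 and 1019, 897 and 736 counts in MA9+EV, a log2 fold change of -0.37 (SE 0.11, with an adjusted p of 0.0287 by edgeR), opposite in direction to Syce2. Klf1 had 2367, 1119 and 1379 counts in MA9+SETDB1 and 12, 19 and 21 counts in MA9+EV, a log2 fold change of 6.87 (SE 0.42, with an adjusted p of 3.18e-05 by edgeR). Farsa, a tRNA synthetase subunit gene 2.85 kb away, made no call (log2 fold change 0.28, SE 0.12, with an adjusted p of 0.0855 by edgeR). All 8 erythroid markers rose with Syce2 in MA9+SETDB1, with summed levels of 1146 to 1314 CPM in MA9+SETDB1 and 0.785 to 1.71 CPM in MA9+EV. Their part in the Syce2 result was not tested.

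Stag3 (ENSMUSG00000036928.14, chromosome 5, 138272514 to 138312397), the meiotic cohesin subunit, had 78, 41 and 44 counts in MA9+SETDB1 replicates 1, 2 and 3, against 34, 27 and 28 counts in MA9+EV replicates 1, 2 and 3. The arms did not overlap, and MA9+SETDB1 replicate 1 was the highest. Levels averaged 3.05 ± 1.14 CPM in MA9+SETDB1 and 1.31 ± 0.166 CPM in MA9+EV, with a log2 fold change of 1.21 (SE 0.35, with an adjusted p of 0.0234 by edgeR). The call was lost without MA9+EV replicate 2 (log2 fold change 1.10, edgeR adjusted p = 0.0939) and without MA9+EV replicate 3 (1.26, adjusted p = 0.0709). It was also lost where each arm had its replicates 2 and 3 summed (1.33, adjusted p = 0.13). Gpc2, a glypican gene that overlaps Stag3, had 26, 16 and 12 counts in MA9+SETDB1 and 17, 9 and 9 in MA9+EV, a difference that did not pass (edgeR adjusted p = 0.102). Sycp2 (ENSMUSG00000060445.11), a lateral element protein, had 12, 10 and 6 counts in MA9+SETDB1 and 4, 13 and 11 counts in MA9+EV. The arms overlapped, and the log2 fold change of 0.34 (SE 0.55) did not pass (edgeR adjusted p = 0.631) and turned to -0.05 without MA9+EV replicate 1. Smc1b, a meiotic cohesin ATPase, had 4 counts in MA9+EV replicate 2 and none elsewhere, and Sycp3 had 1 count in MA9+EV replicate 1.

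**Figure D2:**
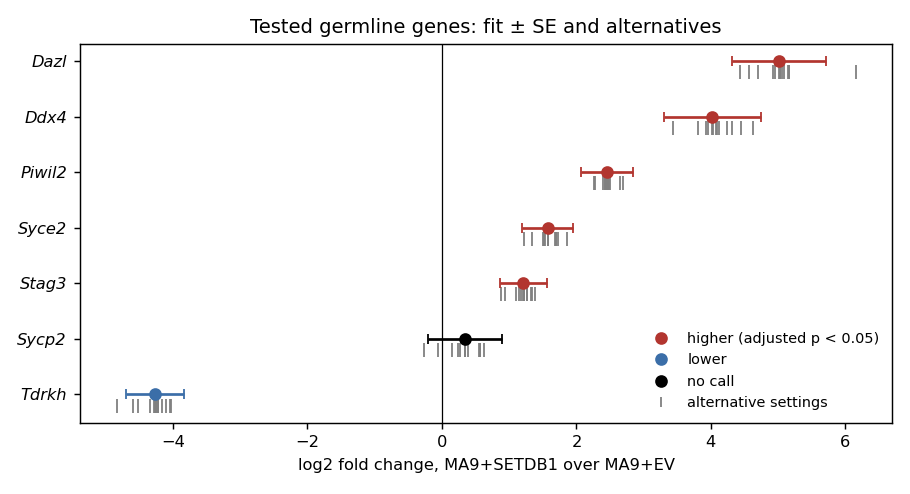
Log2 fold change of MA9+SETDB1 over MA9+EV (horizontal axis) for the 7 germline genes that passed the low-count filter, as the fitted value with its standard error (points with bars) and as the values under the alternative settings (grey ticks). The 5 called higher lie between 1.21 and 5.01, Tdrkh lies at -4.27, and the ticks of Sycp2 fall on both sides of 0.

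Of the recombination enzymes, Spo11, which makes meiotic DNA breaks, had no counts, and Dmc1, the strand exchange protein that repairs them, had counts in MA9+EV alone. Dmc1 had 0 counts in every MA9+SETDB1 library and 1, 9 and 7 counts in MA9+EV replicates 1, 2 and 3, at least 4.45-fold lower with the same floor. It was called when the filter was dropped (edgeR adjusted p = 0.0369) and just missed by DESeq2 (adjusted p = 0.0548).

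Transcription and chromatin genes of the germ line were low or silent. Brdt, a testis bromodomain protein, had 4, 3 and 1 counts in MA9+SETDB1 and 7, 17 and 10 counts in MA9+EV. Its scaled levels did not overlap, but it was below the filter, and without the filter it did not pass (edgeR adjusted p = 0.0955). It passed without MA9+SETDB1 replicate 1 (edgeR adjusted p = 0.0494) and without MA9+EV replicate 1 (0.0355). It did not pass without MA9+SETDB1 replicate 2 (0.11), without MA9+SETDB1 replicate 3 (0.156) or by DESeq2 (0.138). Taf7l, a testis paralog of a TFIID subunit, and Sohlh2, a helix-loop-helix factor of spermatogonia and oocytes, had no counts.

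Among the other testis genes, Tex14 (ENSMUSG00000010342.16, chromosome 11, 87405013 to 87555823), a protein of the bridges between germ cells, had 1, 1 and 3 counts in MA9+SETDB1 replicates 1, 2 and 3, against 6, 16 and 20 counts in MA9+EV replicates 1, 2 and 3. The arms did not overlap. Over the arms the ratio of scaled counts was 6.60-fold lower in MA9+SETDB1 (95% counting interval 2.61 to 21.4). Tex14 failed the filter and was called without it (log2 fold change -2.70, edgeR adjusted p = 0.0203) and by DESeq2 (adjusted p = 0.0242). In edgeR fits without 1 library where it passed the filter, it was called without MA9+SETDB1 replicate 3 (adjusted p = 0.0344) and without MA9+EV replicate 1 (0.00641). It missed the threshold without MA9+SETDB1 replicate 1 (log2 fold change -2.42, adjusted p = 0.0509) and without MA9+SETDB1 replicate 2 (log2 fold change -2.49, adjusted p = 0.0665). Rad51c, a recombination gene on the other strand that starts 0.059 kb from the start of Tex14, fell as well, with 62, 43 and 59 counts in MA9+SETDB1 and 204, 166 and 165 in MA9+EV (log2 fold change -1.36, SE 0.23, with an adjusted p of 0.00239 by edgeR). Dpep3, a testis dipeptidase, had 3 counts and Slc25a31, a germ cell ADP/ATP carrier, 1 count, all in MA9+EV. Tex101, a surface protein of germ cells, and Rpl10l, a testis copy of Rpl10, had none.

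The 14 genes without a count made up 46.7% of the 30, against 29.3% of 20949 genes with a protein-coding RefSeq symbol and 54.6% of all 54146 genes in the files. A count of 0 over an arm allows a level of up to 0.056 CPM in MA9+SETDB1 and 0.044 CPM in MA9+EV, so lower levels were not detectable at this depth. No member was detected in MA9+SETDB1 alone, and 7 were detected in MA9+EV alone, the deeper arm. Of these 7, Sycp3, Slc25a31, Dpep3 and Smc1b had 4 counts or fewer, and Rnf17 had counts in 1 library. Over the protein-coding genes, 1149 were detected in MA9+SETDB1 alone and 1010 in MA9+EV alone. Reads that align to more than 1 place are not in the gene counts, so the 0 of Rpl10l is uncertain.

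The promoter table held 31 windows for 26 members, each from 250 bases before to 50 bases after a start. No window was listed for Tex11, Piwil2, Spo11 and Rnf17. The E-box CACGTG, which reads the same on both strands, was found for 14 of 26 members (53.8%), against 8.09% of 27025 genes in the table and 8.91% of 17492 protein-coding genes. The E2F-type motif TCCCGC, searched on both strands and able to share 1 base with an E-box, was found for 12 members (46.2%), against 22.0% of all genes and 28.4% of protein-coding genes. Both stood in 1 window for 8 members (30.8%), against 2.32% of all genes and 3.10% of protein-coding genes. A match is a string of letters and shows no binding.

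Both motifs were found in members that rose and in members without counts. Of 4 members called higher with a window, Ddx4, Stag3 and Syce2 held both motifs and Dazl neither. The windows of Ddx4 and Stag3 lie wholly inside the gene spans given above, at internal starts. That of Stag3 runs from 138280259 to 138280558, in a gene that begins at 138272514. Among 12 members without counts, 7 held the E-box (Hormad1, Mael, Mov10l1, Stk31, Sycp1, Taf7l and Tdrd9), and 4 held neither motif. Of 8 members with counts that were not tested, 4 held the E-box. The ratio of observed to expected CpG had a median of 0.733 over the 31 member windows and 0.567 over 21263 protein-coding windows. It was 0.6 or more in 80.6% of member windows, against 47.7% of protein-coding windows. The 5 windows of members called higher lay between 0.704 and 1.06, that of Tdrkh at 0.956, and the 14 windows of silent members between 0.43 and 1.03.

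**Figure D3:**
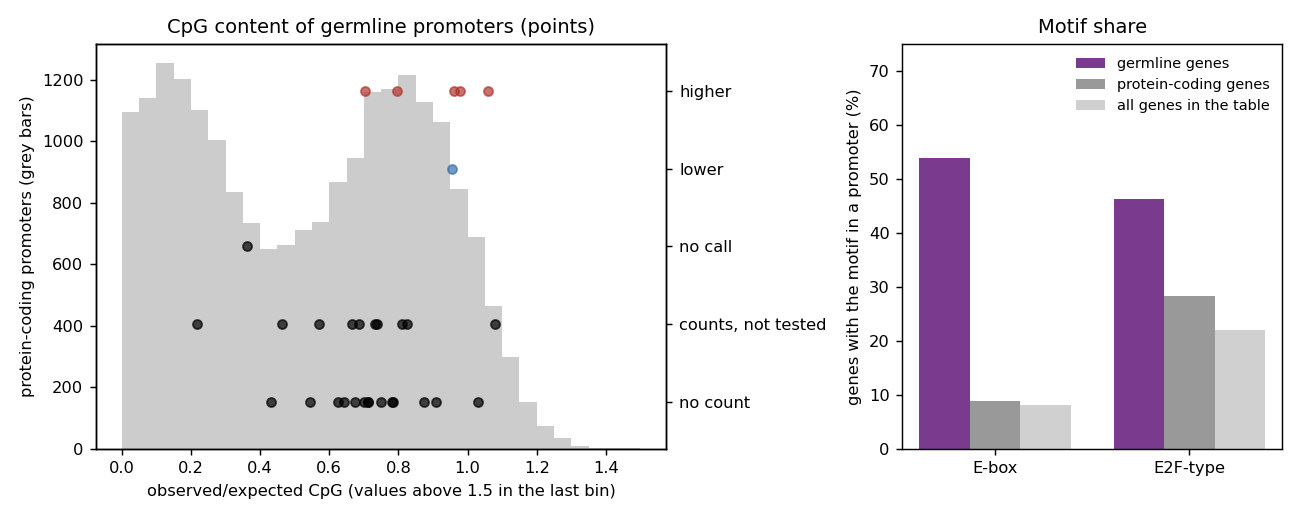
Left, the ratio of observed to expected CpG (horizontal axis) in member promoters, as points by class of the gene, over the histogram of protein-coding promoters (grey bars, left axis). Right, the percentage of genes whose promoter holds the E-box or the E2F-type motif, for the germline genes, protein-coding genes and all genes in the table, with the E-box at 53.8%, 8.91% and 8.09%.

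Of 53 other germline genes, 14 had no count and 17 passed the filter, with 7 higher, 7 lower and 3 without a call. The fit blocked on replicate gave 6 higher and 8 lower. Over all tested genes 27.4% were higher and 26.2% lower in the main fit. The median log2 fold change over the 17 was -0.08. Rec8, the meiotic cohesin subunit that partners Stag3, had 912, 540 and 687 counts (39.9 ± 9.77 CPM) in MA9+SETDB1 and 0 counts in every MA9+EV library, at least 908-fold higher with that floor (edgeR adjusted p = 7.35e-05). Ddx25, a testis RNA helicase, had 152, 195 and 291 counts in MA9+SETDB1 and 1, 0 and 0 counts in MA9+EV (edgeR adjusted p = 5.26e-05). Msh5, a crossover protein, averaged 14.3 ± 3.81 CPM in MA9+SETDB1 and 2.69 ± 0.295 CPM in MA9+EV (log2 fold change 2.41, SE 0.27, with an adjusted p of 0.000436 by edgeR). Hspa2, a chaperone abundant in spermatocytes, averaged 417 ± 38.5 CPM in MA9+SETDB1 and 42.0 ± 28.1 CPM in MA9+EV (log2 fold change 3.31, SE 0.46, with an adjusted p of 0.00105 by edgeR).

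Ddx25, Rec8 and Rec114 passed the filter through MA9+SETDB1 alone, and Hormad2 and Tex15 through MA9+EV alone, so these 5 had to differ to be tested. Lin28a, an RNA-binding protein of stem and primordial germ cells, averaged 3.03 ± 1.21 CPM in MA9+SETDB1 and 58.8 ± 6.76 CPM in MA9+EV (log2 fold change -4.27, SE 0.30, with an adjusted p of 6.09e-05 by edgeR). Trip13, an ATPase of the meiotic axis and of the mitotic checkpoint, averaged 38.4 ± 0.699 CPM in MA9+SETDB1 and 71.5 ± 3.64 CPM in MA9+EV (log2 fold change -0.90, SE 0.09, with an adjusted p of 0.000323 by edgeR). Hormad2, a chromosome axis protein, had 0 counts in MA9+SETDB1 and 14, 25 and 26 counts in MA9+EV, at least 17.0-fold lower (edgeR adjusted p = 0.00285). Tex15, a factor in piRNA-directed silencing, had 0 counts in MA9+SETDB1 and 74, 30 and 20 counts in MA9+EV, at least 32.5-fold lower (edgeR adjusted p = 0.00387).

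All 25 known repressors of germline genes had counts in every library and were tested, with a median log2 fold change of -0.40. Of the 25, 7 were higher, namely the overexpressed Setdb1, Atf7ip, Max, Pcgf6, Ehmt2, Dnmt3a and Kdm5c, and 11 lower. Over all tested genes 27.4% were higher and 26.2% lower. Setdb1 rose by a log2 fold change of 2.39 (SE 0.13, with an adjusted p of 2.42e-05 by edgeR). Dnmt3b, a de novo DNA methyltransferase, averaged 0.356 ± 0.13 CPM in MA9+SETDB1 and 13.5 ± 0.447 CPM in MA9+EV (log2 fold change -5.23, SE 0.30, with an adjusted p of 2.64e-05 by edgeR). It passed the filter through the MA9+EV libraries alone, so, like Dazl and Ddx4, it had to differ to be tested. Zbtb38, a reader of methylated DNA, fell by 2.29 on the log2 scale (SE 0.14, with an adjusted p of 3.23e-05 by edgeR), the H3K9 methyltransferase gene Ehmt1 by 0.92 (SE 0.13, with an adjusted p of 0.00109 by edgeR), and Uhrf1, which guides maintenance DNA methylation, by 0.82 (SE 0.12, with an adjusted p of 0.00149 by edgeR). For the proteins whose motifs were searched, named for that reason after their values were seen, Max rose by 0.58 (SE 0.09, with an adjusted p of 0.00176 by edgeR), and Mga and E2f6 fell by 0.40 (SE 0.13, with an adjusted p of 0.038 by edgeR) and 0.73 (SE 0.16, with an adjusted p of 0.00724 by edgeR). Where each arm had its replicates 2 and 3 summed, 2 of the 25 were higher and 5 lower.

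**Figure D4:**
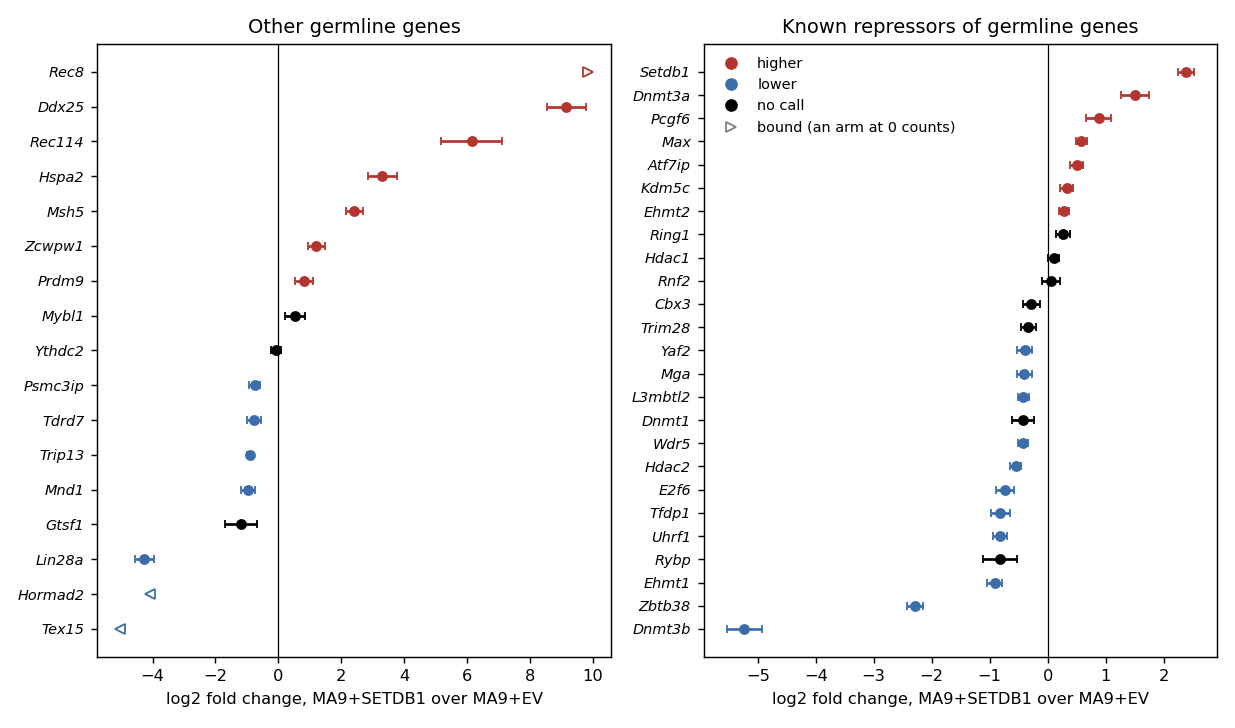
Log2 fold change of MA9+SETDB1 over MA9+EV (horizontal axes) with standard errors for the 17 tested genes of the wider germline list (left) and the 25 repressor genes (right), and open triangles at the bound from 3 counts where an arm had none. Rec8 has the bound furthest to the right, from at least 908-fold, and Dnmt3b lies at -5.23.

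Blood lineage markers also differed between the arms, in both directions. Mast cell and basophil markers were higher for 7 of 8 and lower for Kit, with summed levels of 9916 to 10206 CPM in MA9+SETDB1 and 161 to 202 CPM in MA9+EV. The 4 primary granule markers were lower, with summed levels of 39.4 to 124 CPM in MA9+SETDB1 and 13484 to 14842 CPM in MA9+EV. Of 8 testis markers, the spermatid genes Prm1, Prm2 and Acrv1 had 0 counts in all libraries. Tnp1, also a spermatid gene, had 0, 7 and 3 counts in MA9+SETDB1 replicates 1, 2 and 3 and 0 in every MA9+EV library. The summed level of the 8 was 3.13 to 3.71 CPM in MA9+SETDB1 and 0.747 to 1.90 CPM in MA9+EV. Star, a steroid synthesis gene, was the tested testis marker and rose (log2 fold change 2.07, SE 0.40, with an adjusted p of 0.00464 by edgeR). The part of the lineage difference in the germline results was not tested. H3K9me3 and other chromatin samples of the series were not analysed here.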

How the data were processed

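The deposited values were raw read counts per gene, 1 file for each of 6 RNA-seq libraries, from strand-specific poly-A libraries per the labels' protocols. The other 20 of 26 samples were not analysed here. GRCm38, STAR 2.6.0c and HTSeq 0.11.0 are listed in the submitters' processing notes, with no step assigned. The sources used here do not say whether counting used strand. Reads of overlapping and antisense genes can therefore be mixed. Summary lines held 24.6% to 26.3% of entries and were left out, 18.4% to 20.2% being reads aligned to more than 1 place.

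Identifiers were matched to symbols by versioned identifier (52480 of 54146) or stable identifier (1599), and 67 stayed unmatched. Arms were taken from sample titles. Genes were filtered with filterByExpr (about 0.499 CPM in 3 libraries), scaled with TMM and compared by the quasi-likelihood test of edgeR 4.0.16 in R 4.3.3, after the procedure was tested on simulated data. P-values were adjusted by Benjamini-Hochberg, with a threshold of 0.05. DESeq2 1.42.0 was an alternative. CPM used TMM-scaled library sizes, the common biological coefficient of variation was 0.244, and standard errors came from the F statistic. A floor of 3 counts corresponded to 0.124 to 0.183 CPM in a library. Intervals are exact binomial and, like floors, cover counting error only, since reads carry no molecular identifiers.

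Libraries of the same number deviated together from their arms: over 11978 genes the correlation was 0.260, 0.201 and 0.179 for replicates 1, 2 and 3. Replicates 2 and 3 correlated about as well crosswise (0.186 and 0.209). The main test had no pairing term, and the numbers paired the arms only in the replicate block, an alternative fit. Named were all 30 members, with values per library for those with at least 10 counts in a library. Library values of Tdrd1, Dmc1 and members with fewer counts were added after their values were seen. Added to these were up to 4 called genes per direction of the wider list by smallest p, Setdb1 and 4 called repressors by smallest p, and neighbours within 20 kb, those printed being picked after their values were seen. The other repressors called higher were named after their values were seen. The members and lists were chosen with earlier results of these data known. Exon lengths were not used, so levels are not compared between genes.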

Additional observations from a re-analysis of the deposited data

How the results depend on the processing

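The count of germline genes called higher, 5 of the 7 tested, stayed between 4 and 5 under every alternative run. The count called lower was 1. It was 4 with no filter, where 16 members were tested, 1 with the stricter filter, where 5 were, and 2 with the DESeq2 Wald test, which changed the test and also took 16 members. Leaving out single libraries gave 1 to 3, and leaving out replicate 1 of both arms, an alternative chosen after seeing the data, gave 3. Dazl, Ddx4, Piwil2, Syce2 and Tdrkh kept their call and direction wherever they were tested, with edgeR adjusted p up to 0.0475 for Syce2. Stag3 lost its call under 3 of 14 alternatives. Sycp2 changed sign, to a log2 fold change of -0.05 without MA9+EV replicate 1 (up to 0.62 with other single libraries left out) and -0.26 without replicate 1 of both arms, and never passed; the cause was not tested. With replicates 2 and 3 of each arm summed, repressor genes gave 2 higher and 5 lower and all genes 2292 higher and 1928 lower, in a fit with fewer libraries. Without replicate 1 of both arms, all genes gave 5314 higher and 5285 lower, and with single libraries left out 2992 to 4231 higher and 2727 to 4063 lower. The replicate block gave 5 germline genes higher and 1 lower, and changed no call among the 7, with 6 higher and 8 lower in the wider germline list and 7 higher and 12 lower among repressors. Median shifts between scalings stayed under 0.1 on the log2 scale. Members at 0 or a few counts are limited by depth.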
